A study of Gallus gallus with 31 samples.

Results

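The genes described here build, anchor, read and remodel the extracellular matrix of the chicken anterior pituitary: collagens, small leucine-rich proteoglycans, microfibril proteins, laminins, integrins, matrix proteases and their inhibitors. They were the array spots whose platform gene symbol began with COL and a digit, LAMA, LAMB, LAMC, ITGA, ITGB, MMP, TIMP and a digit, ADAMTS, FBN or FBLN, or was DCN, OGN, OPTC, LUM, SPARC, FN1 or MXRA7, and that were measured on 16 or more arrays. The symbols matched 109 spots of 70 genes, and 95 spots of 65 genes were measured on enough arrays, out of 17408 such spots of the whole array. Of these 95 members, 93 spots of 64 genes had at least 1 array in every group and were tested, among 17193 tested spots. The members left untested were a COL5A2 spot on 17 arrays and the COL9A2 spot on 16 arrays, and the spots just outside the rule were those of LUM, ITGB5 and MMP15 on 15 arrays each. The 14 spots on fewer than 16 arrays included the only spots of LUM, COL5A1, COL12A1, ITGA1 and ADAMTS14, so that nothing is said of these genes. A spot was a printed cDNA clone, and 22 genes had several tested spots.

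The study compared the anterior pituitary of male meat-type chickens of 2 lines divergently selected on body weight, high growth (HG) and low growth (LG), at 1, 3, 5 and 7 weeks after hatch. Each bird's amplified RNA was labelled with Cy3 and hybridised to its own 2-colour cDNA array against Cy5-labelled RNA pooled from all birds, with no dye swap. The methods state 4 birds for each group of 1 line at 1 age. Here each group had 4 arrays, except HG at week 1 with 3, which made 31 arrays. Each line was the product of its own selection history, and the methods describe the lines as housed apart through week 3 and together afterwards, so that line and rearing cannot be told apart at weeks 1 and 3. Birds of weeks 5 and 7 had also been reared apart by line before. The methods also give a change from starter to grower feed at week 3. Age therefore cannot be told apart from feed and housing across that week. All values are log2 ratios of the bird over the pool. A difference of 1 is therefore a doubling, and only comparisons of the same spot between birds are made. In whole glands, fewer cells of a type and less RNA per cell cannot be told apart.

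In the anterior pituitary, cords of hormone-secreting cells lie against capillaries, and each is bounded by a basement membrane, a sheet of type IV collagen and laminin networks. The space between holds fibrillar collagens, chiefly types I and III. Small leucine-rich proteoglycans coat collagen fibrils and set their spacing. Integrins, receptors made of an alpha and a beta chain, tie cells to both compartments. Matrix metalloproteinases (MMPs) and ADAMTS proteases cut matrix proteins, and tissue inhibitors of metalloproteinases (TIMPs) block MMPs.

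Between 14786 and 18342 of the 19200 spots of an array carried good flags, and 71 to 92 of the 93 tested members were measured on an array. Across members, 63 spots had a median Cy3 signal of at least 3 times local background, with a median SD between birds of a group of 0.25, and the 30 dimmer spots had a median SD of 0.41. As a check of the tissue, the brightest spots of growth hormone (GH), prolactin (PRL) and the shared alpha chain of the glycoprotein hormones (CGA) had median signals of 55.1, 73.1 and 83.5 times background. Of 14 spots of pituitary endocrine genes, 2 were called for line: TSHB, the beta chain of thyroid-stimulating hormone, higher in HG by 0.86 ± 0.14 (SE, adjusted p = 0.00148, limma), and FSHB, the beta chain of follicle-stimulating hormone, by 1.15 ± 0.22 (adjusted p = 0.0114). The share called for line over all tested spots was 0.337%, with 0.174% higher in HG. The header inside the file of 1 of the 31 arrays, HG week 1 replicate 1, named week 3 where its label gave week 1, and without that array the members called for age numbered 3 and those called for line 0, as with it. For week 7 minus week 1, the collagen spot COL4A2 33.17.4 then lost its call (adjusted p = 0.082, limma) and the integrin ITGA8 gained one (0.038). Calls over all tested spots went from 58 to 34 for line, 99 to 62 for age and 174 to 95 for week 7 minus week 1.

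The age course was the clearest signal among these genes, and it lay in opticin and type II collagen. OPTC encodes opticin, a small leucine-rich proteoglycan best known from the vitreous of the eye, where it associates with fibrils that contain type II collagen. COL2A1 encodes the type II collagen chain, the main fibrillar collagen of cartilage and vitreous. From week 1 to week 7, averaged over both lines, OPTC fell by 1.80 ± 0.21 on the log2 scale at spot 47.8.18 and by 1.45 ± 0.17 at spot 17.10.12, which are 3.49-fold and 2.74-fold decreases. COL2A1 fell by 0.82 ± 0.12, a 1.76-fold decrease.

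At spot 17.10.12, the HG birds of week 1 gave 0.41, 0.45 and 1.22 and the LG birds 0.99, 0.80, 0.53 and 1.66. At week 3 the HG birds gave -0.02, 0.00, -0.64 and -0.18 and the 3 measured LG birds -0.38, 0.41 and 0.19. By week 5 the HG birds lay between -1.07 and -0.37 and the LG birds between -0.59 and 0.10. Every bird of week 1 was above every bird of week 5 in both lines. At week 7 the HG birds gave -0.57, -1.01, -0.82 and -0.51 and the LG birds -0.87, -0.30, -0.39 and -0.40, so that all 7 birds of week 1 stood above all 8 birds of week 7. The steps between neighbouring ages became smaller, with -0.91 ± 0.18 from week 1 to 3, -0.42 ± 0.17 from week 3 to 5 and -0.12 ± 0.17 from week 5 to 7.

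The OPTC spot 47.8.18 ran the same course. Its week 1 values were 0.33, 0.94 and 1.28 in HG and 1.03, 0.26 and 1.43 in the 3 measured LG birds, and its week 7 values were -0.89, -1.50, -0.84 and -0.80 in HG and -1.30, -0.81, -0.44 and -0.83 in LG. Again no bird of week 7 reached the lowest bird of week 1. The ratios of these spots correlated at r = 0.95 over 28 birds, and at r = 0.83 once the group means were removed, as a description of spots that share arrays. The platform names a further OPTC spot, 31.5.3, which was as bright as the others with a median Cy3 signal of 5.97 times background and did not follow them. It lay between -0.56 and 0.16 in every HG bird and between -0.48 and 0.06 in every LG bird, its week 7 minus week 1 difference was -0.16 ± 0.10 (adjusted p = 0.543), and its correlation with spot 47.8.18 within groups was 0.01. The files do not settle which of these spots carry the gene the platform names.

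COL2A1 was highest at week 1 and low from week 3 onwards. Its week 1 values were 0.14, 0.06 and 0.35 in HG birds and 0.48, 0.09, -0.05 and 0.78 in LG birds. At week 3 the HG birds gave -0.62, -0.39, -0.37 and -0.31 and the LG birds -0.09, -0.15, -0.30 and -0.19, all below the HG birds of week 1. At week 5 the birds spread between -0.72 and 0.13. At week 7 they were between -0.74 and -0.37 in both lines together, below all 7 birds of week 1. The step from week 1 to 3 was -0.56 ± 0.12, against -0.04 ± 0.12 and -0.22 ± 0.12 for the later steps.

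**Figure D1:**
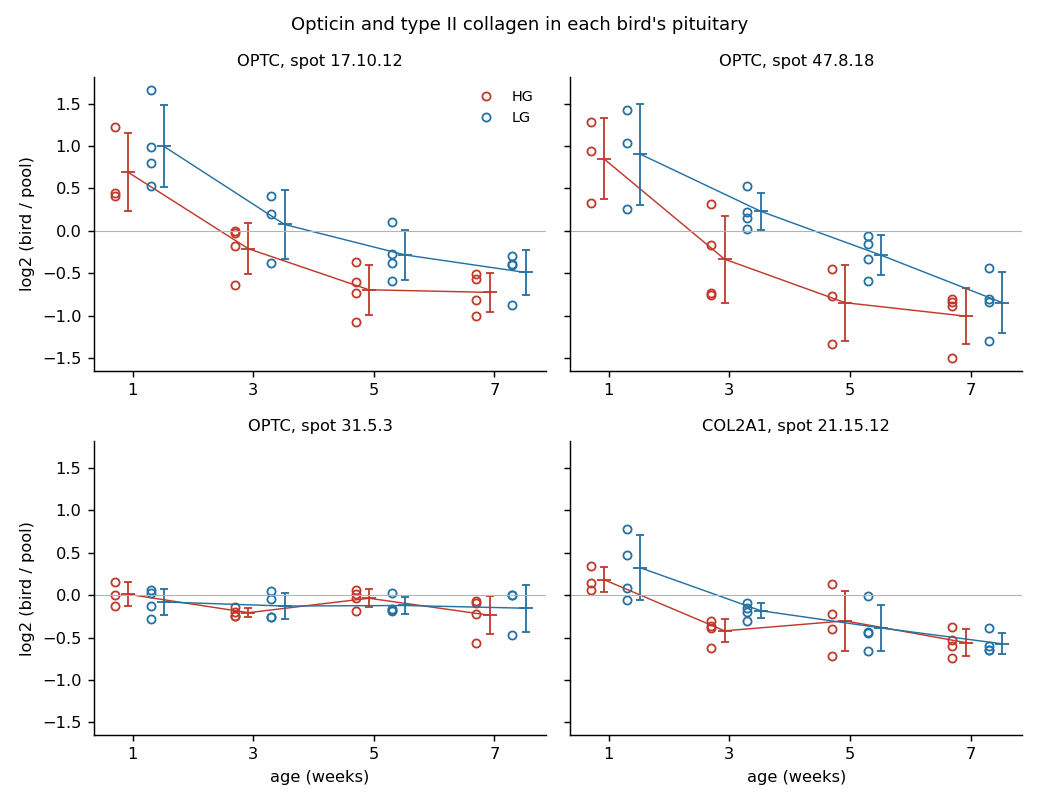
Log2 ratio of each bird over the pool (y axis) at 1, 3, 5 and 7 weeks (x axis) for the OPTC spots and COL2A1; each circle is 1 bird, HG in red and LG in blue, and bars are the group mean ± SD. OPTC spots 17.10.12 and 47.8.18 and COL2A1 are highest at week 1 and lowest at week 7 in both lines, and OPTC spot 31.5.3 stays between -0.56 and 0.16.

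These were the members that passed the test for age. In the moderated F test over the 4 ages, 3 of the 93 tested members were called at an adjusted p under 0.05 over all tested spots, where 0.576% of all 17193 spots were called. They were OPTC spot 17.10.12 (adjusted p = 0.00013), OPTC spot 47.8.18 (adjusted p = 0.000167) and COL2A1 (adjusted p = 0.00456). The OPTC spots ranked 4 and 5 of all 17193 spots by the p-value for age and 14 and 8 by the size of the fall, and COL2A1 ranked 21 by p-value. With only replicates 2 to 4, an alternative chosen after seeing the data, COL2A1 was not called for age (adjusted p = 0.12). At an unadjusted p under 0.05, 12 members passed for age, 12.9% of them against 8.61% of all tested spots. The line-specific falls were alike, at -1.42 ± 0.25 in HG and -1.49 ± 0.24 in LG for OPTC spot 17.10.12 and at -0.74 ± 0.18 and -0.90 ± 0.17 for COL2A1. The difference between the lines in this change was 0.07 ± 0.35 for that OPTC spot and 0.15 ± 0.25 for COL2A1, neither past the test.

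The single contrast of week 7 minus week 1 added 1 member to these, COL4A2 spot 33.17.4, which fell by 0.38 ± 0.09 (adjusted p = 0.0363). In this mean of both lines, 4 of 93 members fell and 0 rose at an adjusted p under 0.05 in limma, where 1.01% of all tested spots were called, 0.442% falling and 0.57% rising. At an unadjusted p under 0.05, 3 members were higher and 9 lower at week 7, against 6.13% and 5.65% of all tested spots and 11.8% in all. COL4A2 encodes a chain of the type IV collagen that every basement membrane contains. Its other spots, 24.7.5 and 37.7.11, gave 0.02 ± 0.12 and 0.23 ± 0.24, so the fall was seen at 1 of 3 spots. At spot 33.17.4 the fall was mostly that of LG. HG birds there lay between 0.22 and 0.28 at week 1 and between 0.06 and 0.25 at week 7. LG birds lay between 0.02 and 0.57 at week 1 and between -0.48 and -0.23 at week 7. Leaving out any of 11 arrays took its adjusted p above 0.05, with 0.0859 as the highest: HG week 1 replicates 1 and 2, LG week 1 replicates 2 and 3, HG week 7 replicates 1, 2, 3 and 4 and LG week 7 replicates 1, 2 and 4.

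The markers of other cells gave the following beside the falls of OPTC and COL2A1. Of the cartilage and bone markers, 4 spots of 3 genes were tested, none was called for age or for week 7 minus week 1, and their median level per bird ran from -0.34 to 0.04 at week 1 and from -0.31 to 0.07 at week 7. The other collagens of cartilage fibrils gave week 7 minus week 1 differences of -0.14 ± 0.11 for COL9A1, -0.29 ± 0.50 for COL9A3 and 0.01 ± 0.08 for COL11A1 spot 18.15.11. COL11A1 spot 47.5.18 gave -0.01. COL11A1 spot 14.15.9 gave 0.49 and -0.25 in measured HG birds at week 1 and -0.52, -0.65, -0.37 and -0.27 at week 7. Its measured LG birds gave -0.19, -0.27 and -0.36 at week 1 and 0.07, -0.55, -0.26 and 0.59 at week 7. Among 14 spots of pituitary endocrine genes 2 rose with age, CHGB, a secretory granule protein, by 1.76 ± 0.29 (adjusted p = 0.00157) and PCSK1, a prohormone convertase, by 0.89 ± 0.18 (adjusted p = 0.0113), while the median difference over the 14 spots was -0.07 and their median level per bird ran from -0.45 to -0.10 at week 1 and from -0.24 to 0.17 at week 7. CD74, an antigen presentation chain of leukocytes, rose by 1.09 ± 0.24 at spot 19.2.13 (adjusted p = 0.026), the only one called of 18 macrophage and leukocyte spots, and its other spots gave 0.03 to 0.41. The share called for week 7 minus week 1 over all tested spots was 1.01%, with 0.57% rising. The 3 blood spots, of haemoglobin and red cell membrane genes, had a median difference of -0.47 with all 3 below 0 and all 3 at an unadjusted p under 0.05 for age, and their median level per bird ran from -1.03 to 0.82 at week 1 and from -1.07 to 0.83 at week 7. The 5 glial spots had a median of -0.28, with MBP, a myelin protein, at -0.69 ± 0.21 and -0.42 ± 0.18, and a median level per bird from -0.15 to 0.58 at week 1 and from -0.52 to 0.48 at week 7. By line, the blood median was -1.27 in HG, with 0 of 3 spots above 0, and 0.32 in LG, with 2 of 3 above 0. The glial median was -0.55 in HG, with 0 of 5 spots above 0, and -0.004 in LG, with 2 of 5 above 0. None of these spots was called, and 8.61% of all tested spots had an unadjusted p under 0.05 for age. The part of these markers in the falls was not tested.

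**Figure D2:**
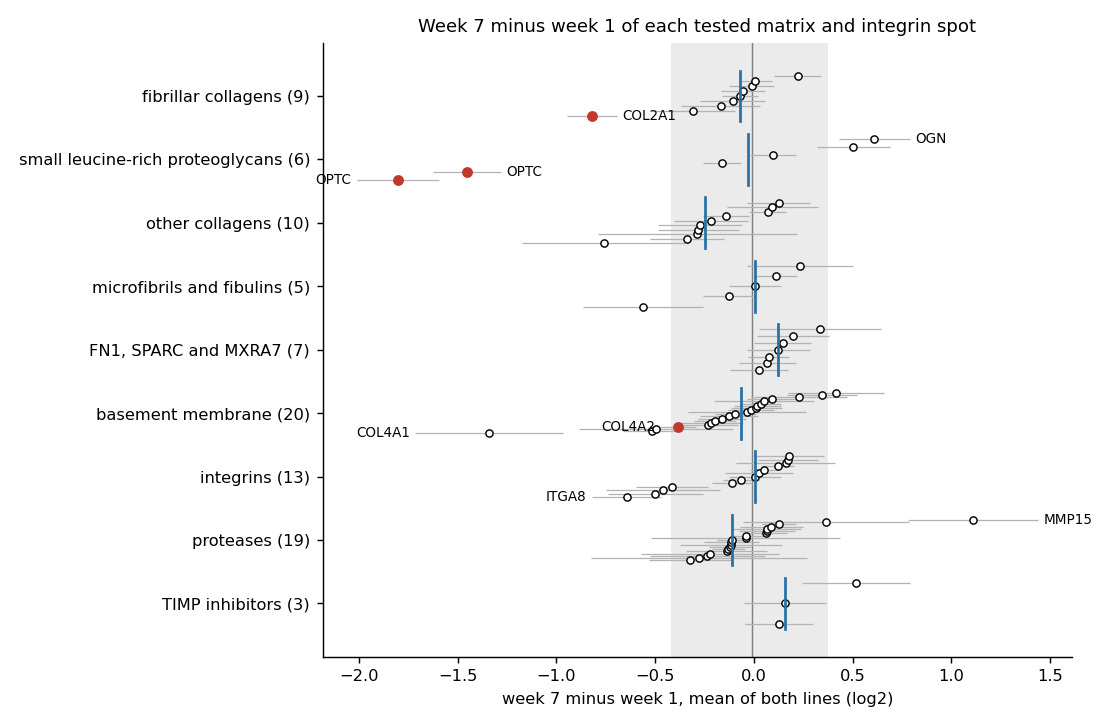
Week 7 minus week 1 difference (x axis, log2, mean of both lines) of each tested spot with its SE, by role group (y axis, number of spots in brackets); filled red points passed an adjusted p of 0.05, blue bars are group medians, the grey band holds the middle 90% of all tested spots, and ITGB1BP3 is left out. Of the called spots, OPTC spots 17.10.12 and 47.8.18 and COL2A1 stand to the left of the band and COL4A2 spot 33.17.4 lies inside it. Some spots that were not called, such as COL4A1 spot 12.7.15 and ITGA8, also stand to its left. The group medians lie between -0.25 and 0.16.

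Among fibrillar collagens, which give tissue its tensile strength, COL2A1 was the only one of 9 tested spots called for age, and 2 of 9 spots had a week 7 minus week 1 difference above 0. Their median was -0.07, against -0.01 over all tested spots, of which 52.2% were below 0. COL1A1 and COL1A2, the chains of type I collagen, gave -0.07 ± 0.09 and -0.31 ± 0.21. COL3A1, the type III chain, gave 0.22 ± 0.12 at its bright spot 16.9.11 and -0.11 ± 0.17 at its dim spot 28.9.13, and COL5A2, a chain of the type V collagen that nucleates fibrils, gave -0.06 ± 0.11. None of these differences passed the test. The median over the fibrillar spots in each bird lay between -0.15 and 0.06 at week 1 and between -0.33 and -0.01 at week 7, so that birds of these ages overlapped.

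The 20 basement membrane spots had a median of -0.07 for week 7 minus week 1, with 8 of 20 above 0, 1 called and 4 at an unadjusted p under 0.05 for age. Of all tested spots, 1.01% were called for week 7 minus week 1 and 8.61% had an unadjusted p under 0.05 for age. Among those measured on all 31 arrays, the lowest value was that of LAMC1 spot 28.8.11, the gamma 1 chain shared by most laminins, at -0.51 ± 0.15 (adjusted p = 0.11). It was called with the deposited table (adjusted p = 0.0128), the signal filter (0.0346), array weights (0.0376) and the replicate number as a block (0.0407). The brighter LAMC1 spot 11.7.9 gave -0.09 ± 0.10, and these spots moved oppositely among birds of a group (r = -0.85 over 31 birds). LAMA4, the alpha 4 chain of vascular laminins, gave 0.42 ± 0.25, and without LG week 1 replicate 3 it gave 0.68 and was called (adjusted p = 0.0467). COL15A1 and COL18A1, collagens of the basement membrane zone, gave differences from -0.50 to -0.01. COL4A1 spot 12.7.15 gave -1.34 ± 0.37 (adjusted p = 0.153), from 17 arrays with only 1 LG bird at week 1, at a spot with a median signal of 1.81 times background. It was called without HG week 5 replicate 3 (adjusted p = 0.0308), without HG week 5 replicate 4 (0.0331) and, at -0.79, with no background correction (0.0478). In 28 of 30 fits with 1 array left out it was not called, with an adjusted p up to 0.33. The brighter COL4A1 spot 27.7.17 gave -0.23 ± 0.15.

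The remaining groups held no member called for age. OGN, which encodes osteoglycin, another small leucine-rich proteoglycan, had differences of 0.61 ± 0.18 at spot 2.3.7 and 0.50 ± 0.18 at spot 14.6.19 (adjusted p = 0.125 and 0.262), and spot 2.3.7 was called with print-tip loess, at 0.69 (adjusted p = 0.0324). Integrin ITGA8, the alpha 8 chain that pairs with beta 1 to bind fibronectin and nephronectin, gave -0.64 ± 0.17 (adjusted p = 0.0756). Its adjusted p was 0.038 without HG week 1 replicate 1, 0.0411 without HG week 5 replicate 2 and 0.0306 without HG week 7 replicate 4. In the other 28 fits with 1 array left out it stayed above 0.05, up to 0.159. FN1, SPARC and MXRA7 gave differences above 0 at all 7 spots, from 0.03 to 0.33, none past the test. FN1 encodes fibronectin, the glycoprotein that integrins assemble into fibrils, and SPARC a collagen-binding matricellular protein. TIMP4 gave 0.52 ± 0.27 and TIMP2 0.13 ± 0.17. The proteases ran from -0.32 to 1.11 with a median of -0.11, the highest being MMP15 spot 39.3.8 at 1.11 ± 0.33 (adjusted p = 0.13). Without LG week 3 replicate 4 this value was called (adjusted p = 0.0341). In the other 30 fits with 1 array left out it was not called, with an adjusted p up to 0.251. Within LG this spot rose by 2.10 ± 0.45 (adjusted p = 0.0362), against 0.11 ± 0.48 in HG. The difference of these changes, -1.99 ± 0.66, did not pass the test. The other tested MMP15 spots did not show this rise. In LG, spot 42.3.15 gave 0.44, 0.06 and 0.99 at week 1 and -0.43, 1.03 and 0.37 at week 7. Spot 38.8.11 gave -0.58 and 0.17 at week 1 and -0.22 at week 7 in the LG birds measured. Taken by line, 5 of 93 members were called for week 7 minus week 1 in LG, where 0.268% of all tested spots were called. They were the dim MMP15 spot 39.3.8, rising, and spots of OPTC, COL2A1 and COL4A2, falling. In HG 2 were called, both OPTC spots, where 0.0872% of all tested spots were.

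No tested member was called for a difference between the lines. Averaged over the 4 ages, 0 of 93 members passed an adjusted p under 0.05 in limma, where 0.337% of all tested spots did (0.174% higher in HG and 0.163% higher in LG). At an unadjusted p under 0.05, 19 of 93 members passed, which is 20.4%, against 7.25% of all tested spots. Of these 19, 9 were higher in HG and 10 were higher in LG, where the shares of all tested spots were 3.58% and 3.66%. Small leucine-rich proteoglycans, which the rule names one by one, gave 1 of those higher in HG and 4 of those higher in LG. ITGB1BP3, which is not a matrix or integrin gene, gave 1 more. Members were chosen with earlier results of these data known, so their shares of unadjusted p, for line, age or interaction, are no test of these genes. The analysis of variance by line and age that the methods name, without moderation, gave 18 members at an unadjusted p under 0.05 and 0 after adjustment. The shares of all tested spots in that analysis were 7.28% and 0.25%. The median line difference over the 93 members was 0.00, with 43 of them above 0, where 50.3% of all tested spots were above 0.

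The smallest p-value for line belonged to DCN, decorin, the proteoglycan that binds type I collagen fibrils and the growth factor TGF-beta. It was 0.33 ± 0.08 higher in HG, or 1.26-fold, with an unadjusted p of 0.000454 and an adjusted p of 0.0815 (limma). At week 1 the HG birds gave 0.13, 0.41 and 0.04 and the LG birds -0.07, 0.26, -0.31 and -0.15. At week 3 the values were 0.43, 0.47, 0.07 and 0.22 against 0.18, 0.08, -0.09 and 0.15. At week 5 the HG birds stood at 0.66, 0.21, 0.56 and 0.44, with LG birds at -0.13, -0.12, 0.44 and 0.36. By week 7 the HG birds read 0.69, 0.36, 0.29 and 0.31 and the LG birds -0.39, -0.24, 0.01 and 0.24. All 15 HG birds were above the pool and the LG birds spread around it, and the groups separated without overlap at week 7 only. The line differences by age were 0.26 ± 0.17, 0.22 ± 0.16, 0.33 ± 0.16 and 0.51 ± 0.16. Leaving out HG week 1 replicate 4 brought the adjusted p to 0.0472. In the other 30 fits with 1 array left out DCN was not called, with an adjusted p up to 0.179.

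Osteoglycin stood the other way round. It had lower values in HG, with line differences of -0.46 ± 0.13 at spot 2.3.7 (adjusted p = 0.148) and -0.44 ± 0.13 at spot 14.6.19 (adjusted p = 0.189). At week 1, spot 2.3.7 gave -0.40, -0.95 and -0.33 in HG and -0.35, -0.60, -0.38 and -0.41 in LG birds. At week 3 it gave -0.65, 0.21 and -0.60 in the 3 measured HG birds, against 0.56, -0.12, 0.02 and -0.33. At week 5 the HG birds were at -0.50, -0.08, -0.26 and -0.60 and the LG birds at 1.06, 0.33, 0.18 and -0.11. The week 7 values were 0.19, -0.02, -0.69 and -0.22 in HG and 0.13, 0.85, 0.20 and 0.46 in LG. The lines lay together at week 1, with a difference of -0.12 ± 0.26, and differed by -0.73 ± 0.24 at week 5 and -0.60 ± 0.24 at week 7. Spot 14.6.19 was measured in 26 birds and correlated with spot 2.3.7 at r = 0.77, or 0.52 within groups. At week 7 it gave -0.20, 0.18, -0.65 and -0.07 in HG and 0.83, 0.29, 0.48 and 0.52 in LG, without overlap, and its line difference went from -0.04 ± 0.29 at week 1 to -0.72 ± 0.23 at week 7. Leaving out HG week 3 replicate 3 brought its adjusted p to 0.0467. In the other 30 fits with 1 array left out it was not called, with an adjusted p up to 0.514.

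OPTC had line differences at its age-dependent spots of -0.31 ± 0.12 and -0.33 ± 0.14 (adjusted p = 0.466 and 0.551), and its flat spot gave 0.00 ± 0.07. The estimated line differences of the small leucine-rich proteoglycans were of either sign, with a median of -0.32 over 6 spots that came from 3 genes. None of these spots passed the test.

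In the basement membrane, the 2 smallest p-values for line were those of COL4A2 spot 33.17.4, 0.24 ± 0.06 higher in HG (adjusted p = 0.10), and LAMA4, 0.51 ± 0.17 higher (adjusted p = 0.302). COL4A2 was level between the lines at first, with 0.26, 0.28 and 0.22 in HG and 0.02, 0.57, 0.45 and 0.10 in LG at week 1. At week 3 the HG birds gave 0.10, 0.00, 0.06 and 0.19 and the LG birds -0.14, 0.04, 0.02 and -0.01. At week 5 the values were 0.27, -0.20, 0.28 and 0.17 against -0.36, -0.40, -0.06 and -0.05. At week 7 the HG birds gave 0.06, 0.13, 0.21 and 0.25 and the LG birds -0.38, -0.46, -0.23 and -0.48, without overlap. The line difference moved from -0.03 ± 0.13 through 0.11 ± 0.12 and 0.35 ± 0.12 to 0.55 ± 0.12, and from week 1 to 7 the spot changed by -0.09 ± 0.13 in HG and -0.67 ± 0.12 in LG. The interaction of line and age had an unadjusted p of 0.0179 and did not pass after adjustment. COL4A1 spot 12.7.15, the third basement membrane spot at an unadjusted p under 0.05, went the other way with -0.69 ± 0.26 (adjusted p = 0.466), on 17 arrays. At week 1 its only measured LG bird gave 2.09, against 0.03 and -0.46 in HG. At week 3 the measured HG birds, at -0.76 and -0.01, were instead above the LG birds, at -1.21 and -1.28. Without that week 1 LG bird the spot had no LG value at week 1 and was not tested. COL4A1 spot 27.7.17 gave 0.11 ± 0.10. The other COL4A2 spots had line differences of -0.01 ± 0.08 and 0.12 ± 0.17. Leaving out HG week 5 replicate 2 brought the adjusted p of spot 33.17.4 for line to 0.0389, with a difference of 0.27. In the other 30 fits with 1 array left out it was not called, with an adjusted p up to 0.178.

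LAMA4 gave 0.32, -0.19 and -0.56 in HG at week 1, where the LG birds gave -1.03, -0.56, 1.26 and -1.06. At week 3 the HG birds gave -0.09, -0.08, 0.27 and 0.11 and all 4 LG birds were lower, at -0.64, -0.29, -0.43 and -0.42. At week 5 the values were 0.08, 0.81, 0.75 and 0.37 against -0.02, -0.41, 0.12 and 0.16. At week 7 they were 0.10, 0.42, 1.33 and 0.39 against -0.42, -0.17, -0.27 and -0.05. HG birds were above LG birds without overlap at weeks 3 and 7, and at week 1 a single LG bird, replicate 3, read 1.26. Without that bird the difference was 0.64 and the adjusted p 0.00362, so the call for LAMA4 turned on 1 of 31 arrays. In the other 30 fits with 1 array left out it was not called, with an adjusted p up to 0.465. No other laminin chain passed even an unadjusted p under 0.05 for line, and LAMB2, the beta 2 chain, came next at 0.16 ± 0.09.

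**Figure D3:**
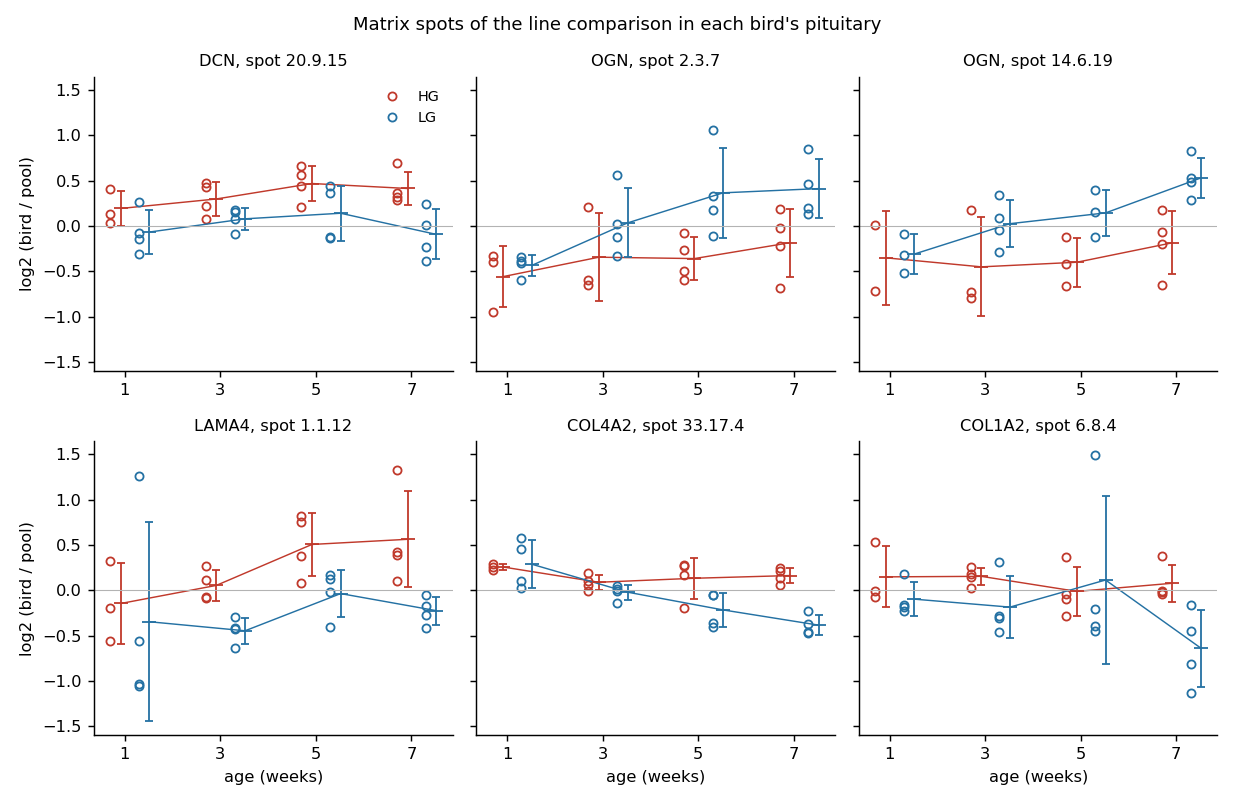
Log2 ratio of each bird over the pool (y axis) by age in weeks (x axis) for DCN, both OGN spots, LAMA4, COL4A2 spot 33.17.4 and COL1A2; circles are birds, HG in red and LG in blue, and bars are the group mean ± SD. At week 7 the HG means of DCN, LAMA4, COL4A2 and COL1A2 lie above the LG means and those of OGN below, while the lines overlap in all panels at week 1.

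Over the 20 basement membrane spots the median line difference was 0.00, with 9 of 20 above 0 and 3 at an unadjusted p under 0.05, and over the 9 fibrillar collagen spots it was 0.07, with 5 of 9 above 0 and 1 at an unadjusted p under 0.05. The median over all tested spots was 0.00, and 7.25% of them had an unadjusted p under 0.05 for line. In each bird, the median over the basement membrane spots lay between -0.21 and 0.11 in HG birds and between -0.23 and 0.12 in LG birds of all ages. The median over fibrillar collagens lay between -0.33 and 0.14 in HG birds and between -0.30 and 0.05 in LG birds. Within groups, the deviations of 1 spot per gene correlated at a median of 0.03 over 15 pairs of fibrillar collagens, 0.00 over 66 pairs of basement membrane genes and -0.01 over 72 pairs across them, with a mean of 0.00 over all spots on 31 arrays.

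Of the fibrillar collagens, COL1A2 was 0.29 ± 0.15 higher in HG (adjusted p = 0.718) and COL1A1 0.07 ± 0.06. At week 7 the COL1A2 birds gave -0.02, 0.38, -0.01 and -0.04 in HG and -1.14, -0.16, -0.45 and -0.81 in LG, a difference of 0.72 ± 0.29 with all HG birds higher, and at week 5 an LG bird at 1.49 stood far above the others. COL11A1, a chain of the type XI collagen of cartilage fibrils, was -0.18 ± 0.08 at spot 47.5.18 and 0.20 ± 0.14 at spot 14.15.9, opposite in sign and neither past the test. Of the other collagens, COL6A2, a chain of beaded filament collagen, was 0.36 ± 0.16 higher in HG at spot 10.8.7 (adjusted p = 0.606) and 0.07 ± 0.14 at the brighter spot 26.3.12. COL8A1, a short-chain collagen of vessels and of Descemet's membrane in the eye, was -0.31 ± 0.26 at a dim spot on 18 arrays and 0.06 ± 0.07 at a bright spot on 31.

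Fibulins and fibrillin form and decorate the microfibrils on which elastic fibres assemble. FBLN1 was 0.12 ± 0.08 higher in HG, FBLN5 0.06 ± 0.20, FBLN7 -0.02 ± 0.08, and the FBN1 spots gave 0.16 ± 0.21 and -0.04 ± 0.09, none past the test. SPARC was 0.17 ± 0.07 higher in HG at spot 39.9.13 (adjusted p = 0.574) and 0.15 ± 0.10 at spot 13.3.1, whose median signal of 79.5 times background made it the brightest of the members. The 4 tested FN1 spots lay between 0.00 and 0.19. The spot that the platform names MXRA7, a matrix remodelling-associated membrane protein, gave -0.12 ± 0.12 on 20 arrays. The study assigned the same gene to a pair of spots that the platform leaves without a symbol and that it selected on these samples. These were higher in HG by 0.77 ± 0.13 (adjusted p = 0.00224) and 0.51 ± 0.10 (adjusted p = 0.0137), with week 7 differences of 1.14 ± 0.25 and 0.80 ± 0.19. They fall outside the rule, were not counted as members, and the files do not settle which name is right. Other spots that only the study names were not called for line. They were ADAMTS6, at 0.33 ± 0.10 (adjusted p = 0.262), and COL8A2, at -0.42 ± 0.20 (adjusted p = 0.648).

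Among the integrins, ITGB5, the beta 5 chain that pairs with alpha V to bind vitronectin, was lower in HG at both tested spots. The differences were -0.32 ± 0.12 at spot 7.9.14 and -0.23 ± 0.11 at spot 20.5.5 (adjusted p = 0.433 and 0.629), and the spots correlated at r = 0.77 over 28 birds. At week 7 spot 7.9.14 gave -0.26, -0.16, -0.04 and 0.27 in HG and 0.64, 0.40 and 1.30 in the 3 measured LG birds, without overlap, where the lines overlapped at week 5. Spot 20.5.5 gave -0.28, 0.31, 0.11 and 0.09 in HG and 0.26, 0.30, 0.41 and 0.91 in LG at week 7, and there the lines overlapped. Both spots were dim, with median signals of 2.84 and 2.87 times background. ITGB2, the beta chain of leukocyte integrins, gave -0.14 ± 0.09. ITGAV and ITGB1, the widely expressed alpha V and beta 1 chains, differed by 0.02 ± 0.05 and by -0.01 ± 0.13 and -0.02 ± 0.06. The symbol ITGB1BP3 also matched the rule by its letters although it names a kinase that binds an integrin tail, and it gave 0.20 ± 0.07 (adjusted p = 0.424).

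**Figure D4:**
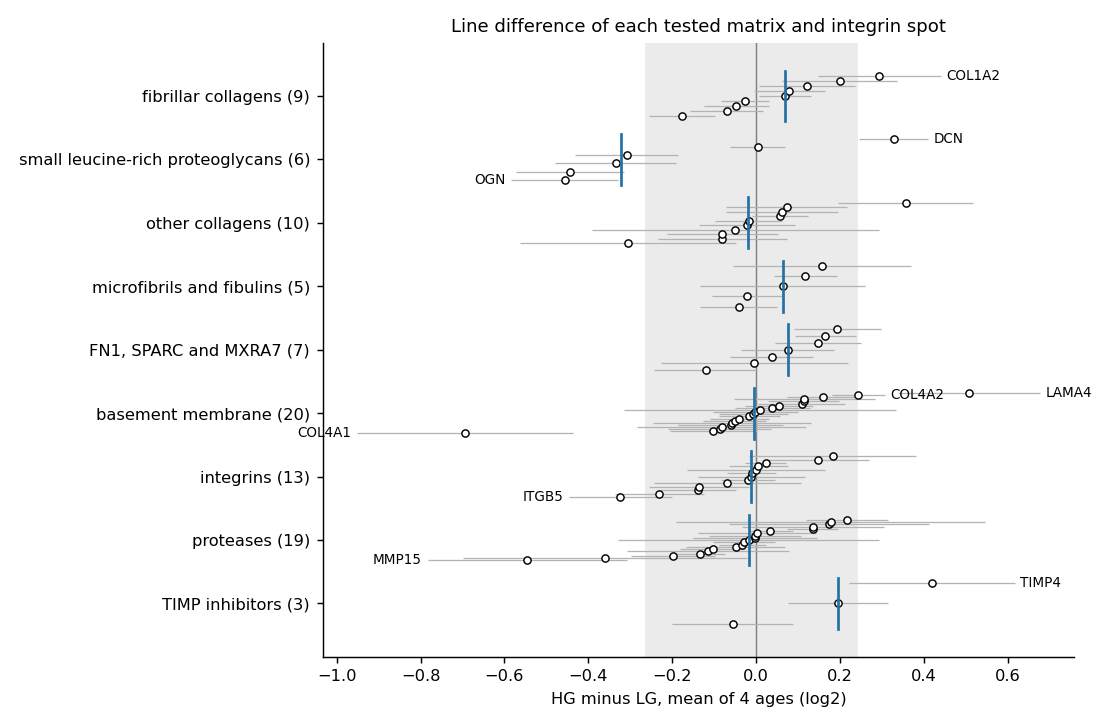
HG minus LG difference averaged over 4 ages (x axis, log2) of each tested spot with its SE, by role group (y axis, number of spots in brackets); open points did not pass an adjusted p of 0.05, blue bars are group medians, the grey band holds the middle 90% of all tested spots, and ITGB1BP3 is left out. No spot passed, the group medians lie between -0.32 and 0.20, and the smallest p-values belong to DCN, COL4A2 and OGN.

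The proteases gave line differences from -0.55 to 0.22 with a median of -0.02. MMP2, a gelatinase that degrades type IV collagen, was 0.13 ± 0.06 higher in HG (adjusted p = 0.606) at a bright spot on 31 arrays, and MMP9, the other gelatinase, was -0.10 ± 0.08. ADAMTS13, the protease of von Willebrand factor, was 0.22 ± 0.10 higher and ADAMTS19 -0.13 ± 0.06, neither past the test. ADAMTSL2 and ADAMTSL3 resemble ADAMTS proteins but lack the protease domain, and they differed by -0.20 to 0.00. Spot 39.3.8 of MMP15, a membrane-type MMP, was the member with the largest line difference at week 7. It gave -0.91, -0.77, -0.23 and -1.17 in HG and 1.34, 0.29, 1.78 and 1.77 in LG, a difference of -2.07 ± 0.45 (adjusted p = 0.168), and its median signal was 1.96 times background. This difference was called without LG week 3 replicate 4 (-2.07, adjusted p = 0.00759), without LG week 7 replicate 2 (-2.40, adjusted p = 0.0397) and with array weights (-2.02, adjusted p = 0.0313). The other tested MMP15 spots, also below 2 times background, gave line differences of 0.14 ± 0.17 and 0.17 ± 0.24. Among the inhibitors, TIMP4 was 0.42 ± 0.20 higher in HG (adjusted p = 0.657), TIMP2 0.20 ± 0.12 and TIMP3 -0.06 ± 0.14. At week 7 TIMP4 gave 0.33, 0.71, 1.04 and 0.19 in HG and -0.47, -0.17, -0.29 and -0.51 in LG, without overlap.

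Week by week, no member was called for line at any age, where 0.0116%, 0.00582%, 0.0407% and 0.0407% of all tested spots were called at weeks 1, 3, 5 and 7. At an unadjusted p under 0.05, the members that passed numbered 6, 5, 7 and 13 in order of age. The shares of all tested spots at those ages were 3.26%, 4.26%, 5.48% and 5.12%. No member was called for the interaction of line and age either, against 0.0116% of all spots, and 6 members passed at an unadjusted p under 0.05, or 6.45% against 2.74%. A change of the line difference with age thus passed the adjusted test in no member. The share of all tested spots whose lines separated without overlap at week 7 was not counted. The separations given above for single spots therefore have no background to compare with.

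Other genes of the matrix outside the rule were read from lists of collagen-processing enzymes, glycoproteins and proteoglycans, and adhesion complex proteins. Of 17 spots of collagen-processing genes, 39 spots of glycoproteins and proteoglycans and 45 spots of adhesion complex genes, 0 were called for line, age, interaction or week 7 minus week 1, and 1, 1 and 5 respectively had an unadjusted p under 0.05 for line. Their median line differences were 0.10, -0.02 and 0.02. Of all tested spots, 7.25% had an unadjusted p under 0.05 for line. Markers of the cells that could carry matrix transcripts were also measured beside the line differences. RGS5, a signalling regulator of pericytes, was 0.30 ± 0.07 higher in HG at spot 2.11.2 (adjusted p = 0.0398) and 0.09 and 0.40 at its other spots, the first being the only one called of 16 fibroblast and mural cell spots, whose median per bird lay between -0.20 and 0.18 in HG birds and between -0.29 and 0.07 in LG birds. The share called for line over all tested spots was 0.337%. Of 24 endothelial spots 0 were called, with 1 at an unadjusted p under 0.05, and their median per bird lay between -0.08 and 0.13 in HG birds and between -0.13 and 0.09 in LG birds. Of 18 macrophage and leukocyte spots, 0 were called and 6 were lower in HG at an unadjusted p under 0.05, against 3.66% of all tested spots. No blood, glial, cartilage or muscle marker was called for line in limma, and the 3 blood spots had a median line difference of 0.23. By age, the blood medians were 0.68, 0.44 and 0.71 at weeks 1, 3 and 5 and -0.92 at week 7, where 2 of the 3 spots were lower in HG at an unadjusted p under 0.05. The glial medians were 0.19, -0.12, -0.07 and -0.16, with all 5 spots lower in HG at week 7. Of all 17193 tested spots, 8544 were higher in HG at week 7, and 485 were lower in HG at an unadjusted p under 0.05. The part of these markers in the line differences was not tested.

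How far spots of the same gene agreed limits what a single spot can show. Over 37 pairs of tested spots of the same gene, from 22 genes, the correlation of deviations within groups had a median of 0.13, exceeded 0.5 in 4 pairs and was below 0 in 13. Group means were removed but the replicate number was not, and the spots of a pair share arrays. The pairs above 0.5 were those of OPTC, ITGB5, MMP15 and OGN. In the 15 pairs in which both spots had a median signal of at least 3 times background, the median was also 0.13. The OGN and ITGB5 values above therefore each rest on a pair of spots that moved together. Those of OPTC rest on such a pair too, but OPTC spot 31.5.3 correlated with its members at only 0.13 and 0.01. The MMP15 pair, spots 39.3.8 and 42.3.15 (r = 0.52), had line differences of opposite sign. The values of COL2A1, DCN, LAMA4 and COL1A2 rest on 1 tested spot each.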

How the data were processed

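Two-colour arrays of 31 birds were analysed. Per the file headers, the authors extracted Cy3 and Cy5 spot intensity with Spotfinder 2.2.4 and normalised it with MIDAS 2.18 (flag and background checks at a signal-to-noise of 3.0, block lowess with smoothing 0.33, SD regularisation), and deposited those log2 ratios as a table. Here the deposited raw intensity was used instead: spots without good flags were set missing, normexp (offset 50) corrected the background, and arrays were normalised by loess in limma 3.58.1 (R 4.3.3). Spots on 16 or more arrays with at least 1 array per group were fitted with 8 group means and eBayes, and p-values were adjusted by Benjamini-Hochberg over all 17193 spots. Differences are HG minus LG. The number of arrays limits precision. The labels only number the replicates, and that each is 1 bird comes from the methods.

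Symbols came from the platform annotation (10601 of 19200 spots); 106 of the 109 matching spots kept their symbol in RefSeq. Named were members past a test, the 3 per role group with the smallest p for line and for age, all spots of DCN, OGN, OPTC, SPARC, FN1 and MXRA7, and the other spots of genes so named; a few further members were named for their role. Members and lists were chosen with earlier results of these data known. The fit was tested on simulated data.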

Additional observations from a re-analysis of the deposited data

Results flagged for a closer look

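Within groups of 4 birds, 26 of 325 groups of a named spot (8%) held a bird whose gap to its nearest neighbour exceeded Dixon's 95% critical value for the group's range, and chance gives about 1 in 20. The values are log2 ratios over the pool, and none was left out of the fits.

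Among fibrillar collagens these birds were HG week 5 replicate 4 at -0.27 for COL11A1 spot 14.15.9 and LG week 7 replicate 4 at -0.27 for spot 47.5.18. For COL1A2 they were HG week 7 replicate 2 at 0.38, LG week 1 replicate 2 at 0.18 and LG week 5 replicate 3 at 1.49. In OPTC, LG week 5 replicate 2 stood at 0.02 at spot 31.5.3 and HG week 7 replicate 2 at -1.50 at spot 47.8.18, below the other HG birds of the age in which this spot was lowest.

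Among other collagens and microfibril genes, HG week 7 replicate 1 stood at 0.05 for COL22A1, HG week 5 replicate 1 at -1.47 for COL8A1 spot 26.9.17, LG week 7 replicate 1 at 0.20 for FBLN1, HG week 5 replicate 1 at 1.21 for FBN1 spot 19.9.11 and LG week 1 replicate 4 at -0.05 for FBN1 spot 36.17.2. SPARC spot 13.3.1 had HG replicate 2 apart at week 3 (0.29) and at week 5 (0.11), and spot 39.9.13 had LG week 7 replicate 1 at -0.55.

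In the basement membrane, HG week 7 replicate 4 stood at 0.30 for COL4A1 spot 27.7.17, HG week 3 replicate 1 at 0.37 for COL4A2 spot 24.7.5, LG week 7 replicate 1 at 1.06 for COL4A2 spot 37.7.11, HG week 7 replicate 4 at -0.67 for LAMC1 spot 16.19.10 and LG week 7 replicate 3 at 0.10 for LAMC1 spot 28.8.11. Of the remaining genes, ITGA4 had LG week 5 replicate 1 at 1.07 and LG week 7 replicate 4 at -0.17, ITGA8 had LG week 1 replicate 1 at -0.18, ADAMTS13 had HG week 3 replicate 4 at -0.19, TIMP4 had LG week 1 replicate 4 at -1.08 and ITGB1BP3 had LG week 7 replicate 1 at -0.14.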

How the results depend on the processing

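The falls of OPTC and COL2A1 from week 1 to week 7 kept their direction and their call whichever of the 31 arrays was left out, with differences from -1.53 to -1.32 and from -1.97 to -1.67 at OPTC spots 17.10.12 and 47.8.18 and from -0.88 to -0.74 for COL2A1. With only replicates 2 to 4, an alternative chosen after seeing the data, 2 members were called for age, the OPTC spots, and COL2A1 was not (adjusted p = 0.12), while its fall stayed called (-0.82, adjusted p = 0.0243). COL2A1, on 19 arrays of the deposited table, was not tested there. The fall of COL4A2 spot 33.17.4 ranged from -0.43 to -0.34 and lost its call in 11 of 31 of these fits, and also with median centring in place of loess (-0.33, adjusted p = 0.194), with only replicates 2 to 4 (-0.41, adjusted p = 0.121), and with the spots of a gene averaged (-0.05, adjusted p = 0.919).

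ITGA8, not called in the main setting, was called for week 7 minus week 1 under 8 settings, replicate block included, and in 3 of the fits with 1 array left out.

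The number of members called for line was 1 rather than 0 with scaling between arrays, with no background correction and with only spots on all 31 arrays, where it was DCN, and with the deposited value table and with a signal of at least 3 times background, where it was COL4A2 spot 33.17.4. It ranged from 0 to 1 when 1 array was left out. At week 7 the number was 1 with the deposited table, 2 with array weights and 0 to 1 with 1 array left out. For age it was 5 with the signal filter, 1 with only spots on all 31 arrays, which leaves out the OPTC spots, and 3 to 4 with 1 array left out. For week 7 minus week 1 it was 2 with the spots of a gene averaged, 3 with median centring, with replicates 2 to 4 alone and for spots measured on all 31 arrays, 5 with scaling between arrays and the deposited table, 6 with print-tip loess, no background correction, the signal filter, array weights and the block, and 3 to 5 with 1 array left out. Without adjustment, 19 members passed for line, 12 for age and 6 for the interaction in limma, and 18, 10 and 4 in the analysis of variance by line and age. Over all spots, the count called for line was 58. It was 39 with median centring and 188 with the deposited table, 34 to 146 with 1 array left out, and 11 with only replicates 2 to 4. For week 7 minus week 1 the count over all spots was 174, and 98 with median centring. It was 211 with print-tip loess, 269 with array weights and 322 of 10323 spots with the deposited table. Tested members numbered 93, but 60 with the deposited table, 56 with the signal filter, 43 for spots on all 31 arrays and 64 averaged genes. The member counts of these settings are therefore not directly comparable.

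The median line difference of fibrillar collagens was -0.0423 with the signal filter, against 0.07, and 0.03 to 0.08 with 1 array left out. Its week 7 minus week 1 median ran from -0.14 to -0.03, and the basement membrane medians ran from -0.03 to 0.02 for line and from -0.11 to -0.02 for age. Small differences that changed sign were those of week 7 minus week 1 for COL11A1 spot 47.5.18 (0.0997 with print-tip loess, 0.0511 with median centring, 0.0444 with array weights, -0.0661 to 0.0687 with 1 array left out), SPARC spot 13.3.1 (-0.0150 with print-tip loess, -0.0147 with array weights, and -0.0442 to 0.1396), MXRA7 spot 29.17.15 (-0.0506 with all flags kept), COL6A2 spot 10.8.7 (-0.2755 with the signal filter, -0.0039 with array weights, -0.15 averaged, and -0.0446 to 0.2162), FBLN7 (0.0201 with the signal filter, 0.0394 with replicates 2 to 4, and -0.2762 to 0.0206) and ADAMTS10 (-0.28 to 1.01 with 1 array left out). For line they were TIMP3 (0.0139 with no background correction, and -0.1234 to 0.0050), FBN1 spot 36.17.2 (0.0467 with the signal filter and 0.0578 averaged), COL11A1 spot 14.15.9 (-0.0332 averaged) and COL8A1 spot 26.9.17 (0.0037 averaged). The cause of these changes was not tested.

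Arrays that shared a replicate number resembled each other, and the main fits did not model this. With group means removed, they correlated at a mean of 0.19, against -0.06 for arrays of other numbers. Of the 31 arrays, 29 lay closest to arrays of their own number. Of 15 same-numbered pairs of an HG and an LG bird of one age, 12 correlated above 0.1, and the range was -0.03 to 0.40. The main fits did not pair them, so the SEs and p-values of those fits leave this resemblance out. With the replicate number as a block, 0 members were called for line, 3 for age and 6 for week 7 minus week 1, where LAMC1 spot 28.8.11 and ITGA8 were added. Over all spots 98 were called for line, 145 for age and 276 for week 7 minus week 1, against 58, 99 and 174 in the main fits. Of the 93 tested members, 30 had a median signal below 3 times background.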
